A study of Mus musculus with 12 samples.

Results

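The genes Adra1a, Itpk1 and Camk2d belong to alpha-1 adrenergic, inositol phosphate and calcium signalling. Adra1a encodes a receptor for noradrenaline, the transmitter that sympathetic nerves release in fat. Itpk1 lies on a side branch of inositol phosphate metabolism, and Camk2d acts after calcium. The 3 genes were chosen by name. Every site that carried one of these names in the 2 deposited lists of differential N6-methyladenosine (m6A) sites was taken, which gave 5 of 739 sites and 3 of 574 genes. The mice were 2-month-old male C57BL/6 animals (C57BL/6J in the methods of the study) with no genetic modification named in the labels, kept for 7 days at 4 °C (cold) or for 7 days at 30 °C (thermoneutral). The tissue was inguinal white adipose tissue (iWAT), the fat pad of the mouse groin, which the labels also call adipocytes, although the whole tissue holds vessels, nerves, immune cells and stroma as well. Fragmented mRNA was pulled down with an antibody against m6A and sequenced (m6A IP) beside RNA that was not pulled down (input), with 3 m6A IP and 3 input libraries of cold mice, and as many of each kind of thermoneutral mice. Only the finished comparison was used here, so no value of a single library, no SD and no depth can be given for any site.

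The alpha-1A adrenergic receptor, encoded by Adra1a, binds noradrenaline and adrenaline and couples to G proteins of the Gq family. These activate phospholipase C, which splits a membrane phosphoinositide into diacylglycerol and inositol trisphosphate. Inositol trisphosphate opens calcium channels of the endoplasmic reticulum. Itpk1 encodes a kinase that adds phosphate groups to inositol phosphates and so stands at a branch between their recycling and the highly phosphorylated forms. Camk2d encodes the delta chain of calcium/calmodulin-dependent kinase II, an enzyme switched on by calcium bound to calmodulin. In thermogenic fat of mice this route runs beside the better known beta-adrenergic and cAMP route, and the alpha-1A receptor has been tied there to creatine cycling. The m6A mark is placed on adenosines within a short consensus written DRACH, in which D stands for any base but C, R for a purine and H for any base but G. GGAC followed by A, C or T is one form of it. It is known to be dense near stop codons and in long last exons.

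The m6A sites of the receptor and of the inositol phosphate kinase were higher in cold, and that of the kinase switched on by calcium was lower. Both sites of Adra1a and both sites of Itpk1 were in the list of sites higher in cold, and the single site of Camk2d was in the list of sites lower in cold. The members thus had 4 sites higher and 1 lower, where 40.7% of all sites in the tables were higher and 59.3% were lower. By gene, Adra1a and Itpk1 had higher sites only, as did 36.1% of the genes in the tables, and Camk2d had a lower site only, as did 61.1%. The lists name the groups C and T, which were read as cold and thermoneutral from the initials of the sample titles, and every direction here rests on that reading. These directions and folds placed the genes in the lists and are given as a description, with no test. The fold is the deposited ratio between the temperatures, with the one of larger signal on top. Whether the inputs entered it is not given in the sources used here, so a change in transcript amount and a change in methylation cannot be told apart. In whole tissue, fewer cells of a type and less RNA per cell cannot be told apart either.

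All 5 sites had their midpoint in the last exon of the transcript that the deposited lists name for them. The sequences show, for each site, the GGAC closest to its middle, in capitals with 10 bases on each side. In the Camk2d site this GGAC begins at base 84 of 439, away from the middle. The sequences were read on the transcribed strand from the mouse assembly GRCm38.p6, with T for U.
Adra1a site 1, chr14:66731947-66731950, plus strand: ggagtggcagGGACcatgaaaggg
Adra1a site 2, chr14:66733219-66733222, plus strand: ttatccaatgGGACacaatttttc
Itpk1 site 1, chr12:102570110-102570113, minus strand: acagagcccaGGACccagaggggc
Itpk1 site 2, chr12:102568728-102568731, minus strand: cagagccccaGGACtaaccacgtt
Camk2d site, chr3:126842965-126842968, plus strand: tccagctaccGGACgggatgttcc
In 4 of these 5 sequences the base after GGAC is A, C or T, so that they are also DRACH sequences. In the Camk2d site it is G, and its only GGAC is therefore not part of a DRACH sequence. The positions are those of the capitals. Which adenosine of a site was methylated is not resolved by the pull-down, and a match is a description of the sequence only.

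Adra1a (Entrez gene 11549) had its sites on chromosome 14, plus strand, in exon 4 of 4 of the transcript named in the table. Site 1 ran from 66731564 to 66732220 of mm10 (657 bp) and was higher in cold, 75.3-fold in the authors' deposited table (p = 3.36e-08, false discovery rate (FDR) 4.04e-07). Site 2 ran from 66733002 to 66733420 (419 bp) and was also higher, 553.1-fold in the authors' deposited table (p = 1.35e-08, FDR 2.18e-07). The sites were separated by 781 bp and their folds differed by 2.88 on the log2 scale. No further site of Adra1a was in the tables.

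The receptor's last exon is itself a matter of isoform. Of 5 protein-coding isoforms in GENCODE M21, 3 held the whole of site 1 in their exons and 2 held none of it. In 1 of these 2, site 1 lay within an intron. Site 1 began at the first base of the exon. In the isoform that the table names, the coding sequence has already ended in the exon before, and the site lay wholly in the 3' UTR from 38 to 694 bases past the stop codon. In another isoform the coding sequence runs on into the exon and ends within the first 15 bases of site 1. That stop codon is shown in capitals on chr14:66731564-66731593. The first 15 bases of this stretch, stop codon included, are coding sequence in 1 receptor isoform and 3' UTR in others.
Adra1a alternative stop codon: ggcttttatccaTGAaaccacctgtgcgac
Site 2 lay whole in the exons of 1 coding isoform and in part in those of the isoform that the table names, which ends inside the site and leaves 91 of its 419 bases beyond the annotated end. The remaining 3 isoforms held none of it in their exons, and in 1 of them it lay within an intron. Taking the coding isoform with the longest exonic length, which ends upstream of exon 4, put both sites outside the transcript. The short fragments of these libraries were not assigned to isoforms here.

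Itpk1 (Entrez gene 217837) had its sites on chromosome 12, minus strand, in exon 10 of 10, at both ends of that 1903 bp exon. Site 1 ran from 102569742 to 102570484 (743 bp) and was higher in cold, 5.10-fold in the authors' deposited table (p = 4.15e-07, FDR 3.75e-06). It started with the first base of the exon and spanned the stop codon, with 359 bases in the coding sequence (stop codon included) and 384 in the 3' UTR. Its midpoint lay 13 bases past the stop codon. The stop codon, in capitals on chr12:102570111-102570140, is shown because the GGAC nearest the middle of the site begins within the same stretch.
Itpk1 stop codon: gcttcctcacagTAGccacagagcccagga
Site 2 ran from 102568582 to 102568980 (399 bp) and was also higher, 2053.2-fold in the authors' deposited table (p = 3.25e-10, FDR 8.06e-08). It covered the last 399 bases of the annotated transcript, from 1146 to 1544 bases past the stop codon, and ended with its last base. An AATAAA sequence, the usual form of the polyadenylation signal, lay 19 bases before that end and is shown in capitals on chr12:102568601-102568606 with its flanks, since it places the site at the transcript's 3' end. It was the only AATAAA in the 5 sites (transcribed strand).
Itpk1 3' end: ttgtctccggAATAAActactgagat
Of 4 protein-coding isoforms of Itpk1 only 1, with the full-length coding sequence, reached the sites. The others are annotated with exonic lengths of only 355 to 421 bases.

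The sites at the ends of Itpk1's last exon had very different folds in the tables. They were 761 bp apart, both higher in cold, and their folds differed by 8.65 on the log2 scale. Among the 65 genes with exactly 2 sites in 1 direction, this was the largest difference, and the median was 2.03. For Adra1a, 24 of these genes had a larger difference. The larger fold of each pair was a whole multiple of 0.1 to within 1e-06 of a step. So were 109 folds of the 739, none of them below 7.0. How such folds arose is not stated in the sources used here, so their size, and the differences that rest on them, are not read as amounts.

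Camk2d (Entrez gene 108058) had 1 site on chromosome 3, plus strand, from 126842882 to 126843320 (439 bp), that was lower in cold, 9.95-fold in the authors' deposited table (p = 1.02e-08, FDR 1.84e-07). It lay in the last exon, at 125 to 563 bases of an exon that is up to 3569 bp long. In the transcript named in the table (exon 18 of 18) the stop codon opens this exon and the site covered 121 to 559 bases past it. In the isoforms with the longest coding sequence the stop codon lies in the exon before, and the midpoint of the site was 366 bases past it. Of 11 protein-coding isoforms 7 held the whole site in their 3' UTR, 3 held part of it and 1 held none. In none did the site touch coding sequence.

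**Figure D1:**
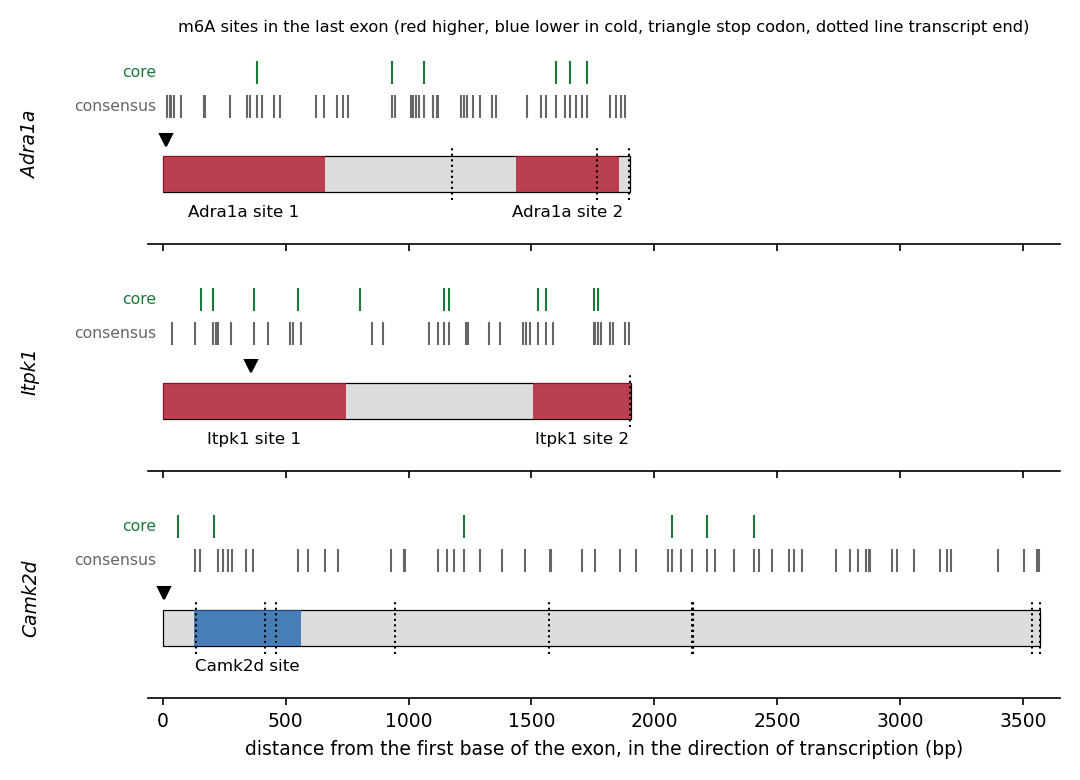
Last exons of Adra1a, Itpk1 and Camk2d in their longest annotated form, drawn to scale from their first base (x axis, bp in the direction of transcription). Coloured blocks are the sites (red higher in cold, blue lower), triangles annotated stop codons, dotted lines annotated transcript ends, and upper ticks each GGAC (core, green) and DRACH (consensus, grey). Both Adra1a and Itpk1 have a site at the start of the exon and another near its end, 781 and 761 bp apart, and Camk2d has one near the start of its longer exon.

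The sites of Adra1a and Itpk1 were arranged alike in the longest annotated form of each last exon, 1899 and 1903 bp long. For Adra1a only 1 isoform has that form. In the isoform that the table names the exon ends at base 1766, inside site 2. In another it ends at base 1178, before site 2. Each gene's first site began with the first base of the exon, and its second site ended near the exon's end, at base 1857 in Adra1a and at base 1903 in Itpk1. As 706 of the 739 sites of the series lay inside a single exon, a site's edge at the first base of an exon was not read as an edge of the signal. Of the 648 sites of the series that had their midpoint in an exon of a coding transcript, 62.0% had it in the 3' UTR, and for these 402 sites the median distance of the midpoint from the stop codon was 495.5 bases (quartiles 182.5 and 1288). On the transcript with the longest coding sequence, all 5 sites of these genes had their midpoint in the 3' UTR, at 13, 366, 366, 1345 and 1685 bases past the stop codon for Itpk1 site 1, Adra1a site 1, the Camk2d site, Itpk1 site 2 and Adra1a site 2. The sites with the larger folds in Adra1a and Itpk1 were the distant ones.

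**Figure D2:**
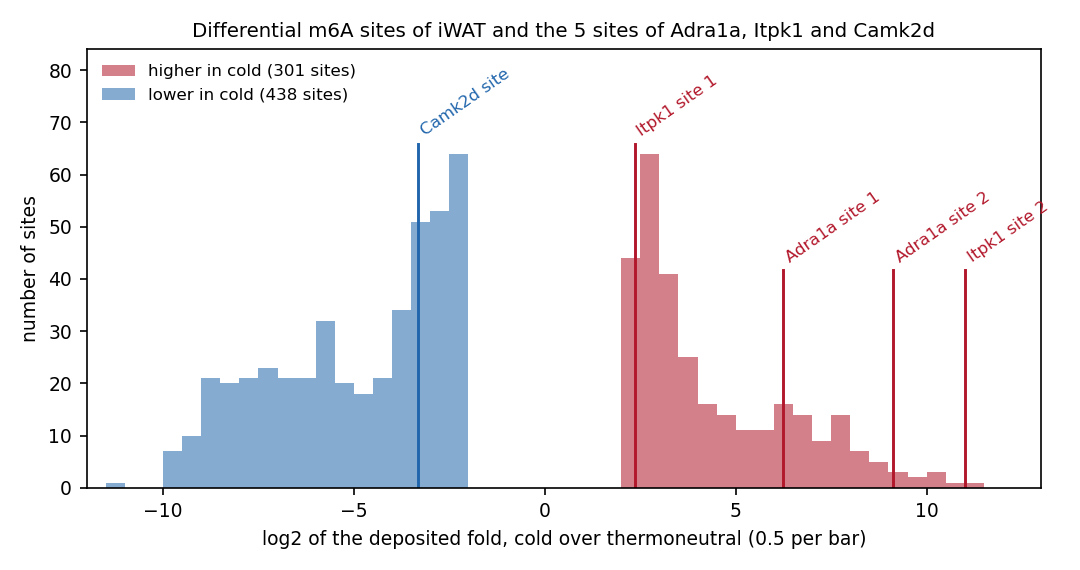
Number of sites (y axis) by the log2 of the deposited fold, cold over thermoneutral (x axis, bars of 0.5), for the 301 sites higher (red) and the 438 lower in cold (blue), with lines at the 5 sites of the 3 genes. The Itpk1 sites stand at 2.35 and 11.00, the Adra1a sites at 6.23 and 9.11 and the Camk2d site at -3.31, and the empty middle reflects the smallest fold in the tables, 4.01.

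The sites of Adra1a and Itpk1 ranged from folds close to the smallest in the list of higher sites to its largest. Among the 265 higher sites whose fold was not a whole multiple of 0.1, 33 had a larger fold than Adra1a site 1 and 237 a larger one than Itpk1 site 1. Among the 365 such lower sites, 214 had a larger fold than the Camk2d site. By p, 19 of the 301 higher sites had a smaller value than Itpk1 site 2, 96 than Adra1a site 2, 137 than Adra1a site 1 and 233 than Itpk1 site 1, and 161 of the 438 lower sites had a smaller value than the Camk2d site. The gene nearest to Camk2d in the fold of its strongest site was Steap3, a metalloreductase of the STEAP family, at 9.95-fold lower. Nearest to Adra1a was Dio2, the deiodinase that activates thyroid hormone, at 567.9-fold higher, and nearest to Itpk1 was Dhrs9, a short-chain dehydrogenase, at 1810.7-fold higher in the authors' deposited table. Likeness was measured here as the difference in log2 fold of the finished comparison (0.0001 for Steap3, 0.04 for Dio2 and 0.18 for Dhrs9), as only 1 value per site could be compared. The folds of Adra1a, Dio2, Itpk1 and Dhrs9 are whole multiples of 0.1, so for these pairs the likeness names neighbours in the list and is not read as a likeness in amount.

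The consensus sequences of m6A were unevenly spread over the sites. Together the sites held 13 GGAC and 57 DRACH sequences on the transcribed strand, counted with overlaps, and each site held at least 1 GGAC and 9 DRACH. Itpk1 site 2 was the densest in both, with 10.025 GGAC and 27.6 DRACH per 1000 bases, against 3.94 and 17.1 in the rest of its exon. Adra1a site 2 had 7.16 GGAC per 1000 bases, against 2.43 in the rest of the exon, and 26.3 DRACH, against 26.7. Itpk1 site 1, at the stop codon, had 5.38 GGAC but only 14.8 DRACH per 1000 bases, the lowest DRACH density of the 5. Adra1a site 1 held a single GGAC in 657 bases (1.52 per 1000) and 15 DRACH (22.8 per 1000). The Camk2d site held 1 GGAC (2.28 per 1000) and 9 DRACH (20.5 per 1000), against 1.60 and 15.3 in the rest of its exon. The rest of the Camk2d transcript had 3.72 GGAC and 19.7 DRACH per 1000 bases, so that the site was the less dense in GGAC on that comparison. That transcript ends inside the site and leaves 102 of its 439 bases beyond the annotated end. Its rest, 1880 bases with 1599 of coding sequence, thus leaves out the 3' UTR that other isoforms have past the site. Against the rest of the transcript, 3 of the 5 sites were denser in GGAC and 4 in DRACH, and against the rest of the exon 4 and 2 were. Among all 706 sites of the series inside a single exon, 84.3% held a GGAC, all held a DRACH, and the median densities were 3.40 and 21.9 per 1000 bases. Of the 297 that were as long as the members' sites (399 to 743 bp), 86.9% held a GGAC. In the 2 genes with 2 sites, the site with the larger fold was the one denser in GGAC. The GC content ran from 38.9% in Adra1a site 2 and 39.0% in the Camk2d site to 58.0% in Itpk1 site 1, against a median of 48.3% over the 706 sites.

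**Figure D3:**
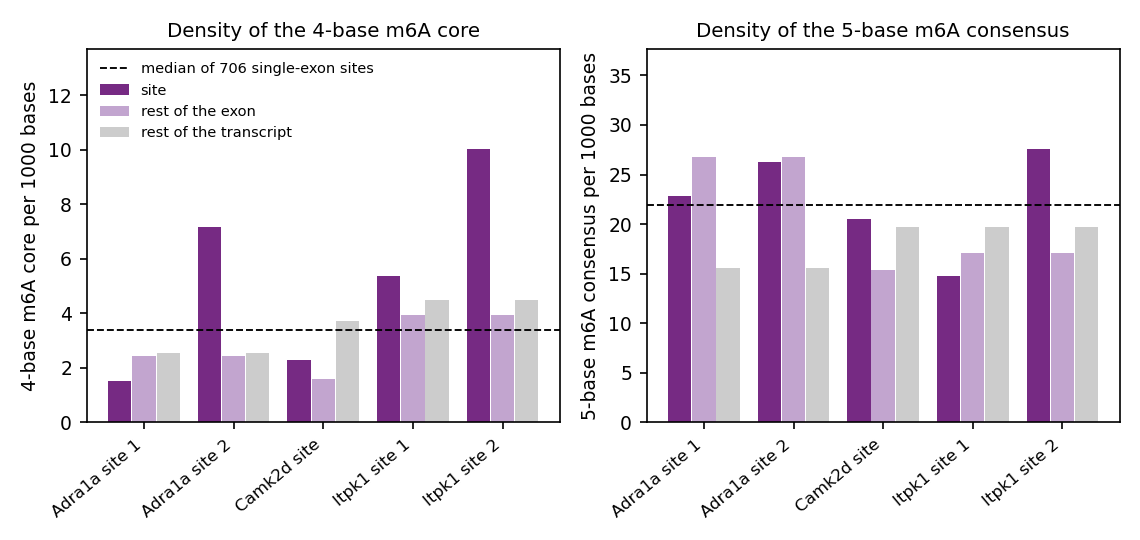
Density per 1000 bases of GGAC (the 4-base core, left) and DRACH (the 5-base consensus, right) in each site (dark bars), in the rest of the longest annotated form of its last exon (light purple) and in the rest of the transcript with the longest coding sequence (grey), with the median of the 706 single-exon sites as a dashed line. Itpk1 site 2 has the highest bar in both panels, 10.025 and 27.6.

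The Camk2d site carried a direct repeat. A stretch of 24 bases occurred at bases 5 and 25 of the site, at chr3:126842886-126842909 and again at chr3:126842906-126842929, so that the copies overlap and span 44 bases. It is shown because each copy holds 1 of the site's 9 DRACH sequences, given in capitals.
Camk2d repeat: atgTGACAcgtcatcttatcatgt
Itpk1 site 1 held a run of alternating G and T, 40 bases long, in its 3' UTR part, from 102569799 to 102569838. The longest exact repeats of the other 3 sites were 9 or 10 bases long. How reads from such stretches were placed is not described in the sources used here.

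Other genes of these pathways had sites in the tables too. The lists of adrenergic receptors, G proteins and their regulators, phospholipase C and diacylglycerol signalling, inositol phosphate metabolism, calcium channels and stores, calcium-dependent kinases and their targets, cAMP signalling and creatine cycling held 287 symbols, of which 17 had a site, 8 with higher and 9 with lower sites only. Without the 3 members it was 14 of 284 (4.93%), 6 with higher and 8 with lower sites only, where 2.52% of the protein-coding genes of GENCODE M21 had a site. The lists were chosen with results of these data known, so the shares are given side by side only. The tables hold only sites of at least 300 bp, with a fold of at least 4.01 and a p of at most 9.65e-06, so the absence of a gene does not show that it did not change, and says nothing about its level or its methylation.

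At the receptor, Adra1a, a member chosen with results of these data known, was the only one of 9 adrenergic receptors with a site. Among those without one were the other alpha-1 receptors, Adra1b and Adra1d, and Adrb3, through which noradrenaline raises cAMP in fat. Of 35 genes of G proteins, their regulators, receptor kinases and arrestins, Gnao1, the alpha subunit of Go, had a site 101-fold higher in cold (FDR 2.40e-07), in an intron of the transcript used, and Gnaq and Gna11, which couple the alpha-1 receptors to phospholipase C, had none. Of 36 genes of phospholipase C and diacylglycerol signalling, Prkch, the eta form of protein kinase C, which diacylglycerol activates, had a site 196-fold lower in its 3' UTR (FDR 1.54e-07). No gene of the phospholipase C beta family was in the tables.

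At the inositol phosphates, 3 of 49 genes had a site, and Itpk1 among them was chosen as a member. Besides Itpk1, Impa2, a phosphatase that releases free inositol from inositol monophosphate, had a site 114-fold higher in its 3' UTR (FDR 3.75e-07). Ipmk, a kinase that phosphorylates inositol trisphosphate and its products, had a site 16.7-fold lower in its 3' UTR (FDR 3.69e-06). The kinases Itpk1 and Ipmk, which both make higher inositol phosphates, thus had sites in opposite directions. None of the inositol trisphosphate receptors Itpr1, Itpr2 and Itpr3 had a site.

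At calcium itself, 2 of 56 genes of channels, pumps and stores had a site, both higher in cold. Atp2a1, the calcium pump of fast skeletal muscle, had a site 16.8-fold higher (FDR 2.94e-06) and Casq1, the calcium-binding protein of skeletal muscle stores, one 8.19-fold higher (FDR 1.78e-05). Both also belong to the skeletal muscle list. Of all protein-coding genes 2.52% had a site, and of all genes with a site 36.1% had higher sites only. Of the 26 skeletal muscle genes 10 had a site, Atp2a1 and Casq1 included, all higher in cold. The defining muscle genes Myh1, Myh2 and Myh4, the fast myosin heavy chains, were among them at 11.6-fold, 14.6-fold and 10.8-fold higher. The part of muscle fibres in the sites of Atp2a1 and Casq1 was not tested. Atp2a2, the pump of most other cells, had no site.

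The list of calmodulins, calcium-dependent kinases, the calcium-dependent phosphatase, their targets and relatives of these held 51 genes. Of these, 4 had a site, Camk2d, Camk1d, Crtc3 and Nfat5, and all 4 sites were lower in cold. Camk2d is a member chosen with results of these data known, so its site adds nothing to this count. Of all genes with a site, 61.1% had lower sites only. Besides Camk2d, Camk1d, another kinase switched on by calmodulin, had a site 4.62-fold lower (FDR 2.57e-06). Crtc3, a coactivator of CREB that is kept in the cytoplasm by phosphorylation and released by calcineurin, had a site 23.5-fold lower (FDR 4.68e-07). Both of these sites had their midpoint in the 3' UTR, as in Camk2d. Nfat5, a transcription factor of the NFAT family that responds to osmotic stress and, unlike its relatives, is not a calcineurin target, was on the list as a relative only and had a site 629.1-fold lower, a whole multiple of 0.1, placed outside the transcript used. The other chains of the kinase, Camk2a, Camk2b and Camk2g, had no site.

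In the parallel cAMP route 5 of 43 genes had a site. The phosphodiesterases Pde7b and Pde4d, which degrade cAMP, had sites 6.44-fold and 5.54-fold higher in cold, both placed outside the transcript used. The adenylyl cyclases Adcy9 and Adcy5, which make cAMP, had lower sites, 115.9-fold and 60.6-fold lower in Adcy9 and 18.0-fold lower in Adcy5, with the strongest site of each in the coding sequence. Akap12, a scaffold that holds protein kinase A near receptors, had a site 23.5-fold lower in its 3' UTR. At a fold of at least 8, or at a p of at most 1e-07, neither phosphodiesterase was left, while Adcy9, Adcy5 and Akap12 were. The folds of 115.9 in Adcy9 and 18.0 in Adcy5 are whole multiples of 0.1, so their size is not read as an amount. Without such folds Adcy5 dropped out, while both phosphodiesterases, Akap12 and the 60.6-fold lower site of Adcy9 stayed. None of the 9 genes of creatine cycling, Ckb among them, had a site.

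**Figure D4:**
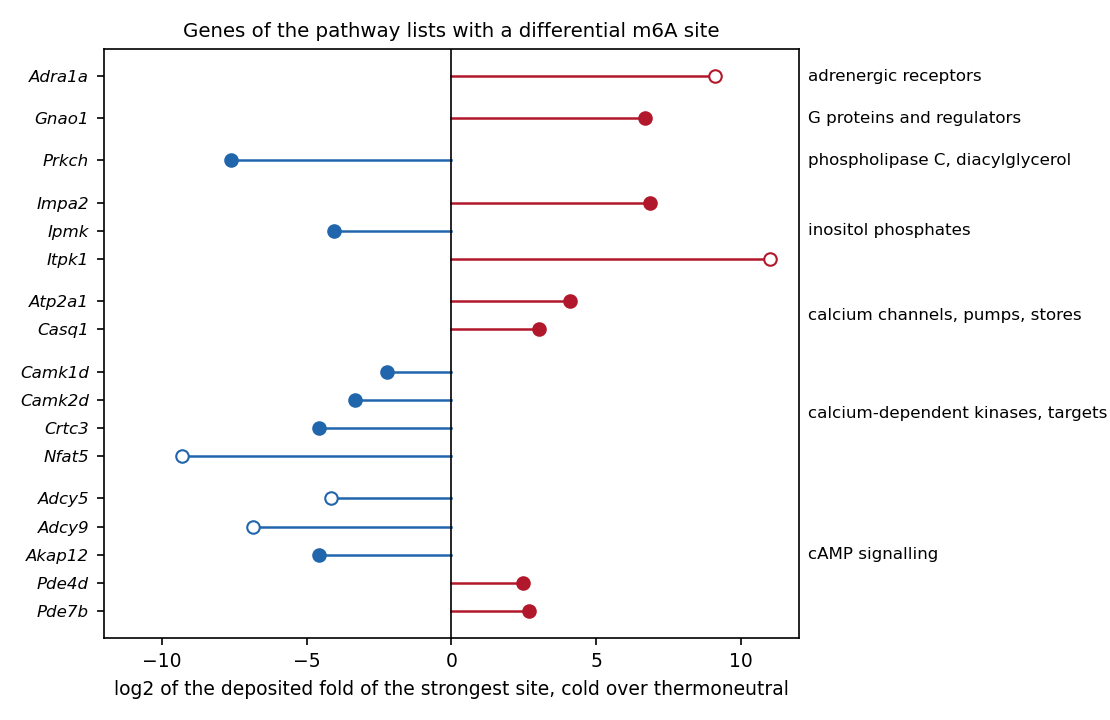
Log2 of the deposited fold of the strongest site of each pathway gene with a site, cold over thermoneutral (x axis), grouped by list from the receptor down (right). Red marks sites higher and blue sites lower in cold, and open circles are folds that are whole multiples of 0.1. The receptor is at 9.11, and all 4 genes of the list of calcium-dependent kinases and targets, which holds Nfat5 as a relative only, lie left of 0. Among all genes with a site, 61.1% had lower sites only.

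The pathway names in the deposited tables gave a wider set, looked at after the values were seen. Under calcium signalling 9 genes had a site, 2 higher only and 7 lower only, where 100 of the 245 genes with any pathway name had higher sites only and 138 lower sites only. The higher ones were Adra1a and Atp2a1. Lower beside Camk2d were the receptors Avpr1a for vasopressin (109-fold) and Ptafr for platelet-activating factor (139.3-fold), both of which can couple to Gq, the growth factor receptor Egfr (220.5-fold, 4 sites), the calmodulin-like Calml3 (194-fold), the G protein subunit Gnal (21.2-fold) and Adcy9. Of the Gq-coupled receptors under this name with a site, Adra1a thus had higher sites and Avpr1a and Ptafr lower ones. Under inositol phosphate metabolism 3 of 4 genes had higher sites only, namely Itpk1, Impa2 and Pik3cg, the gamma catalytic subunit of phosphoinositide kinase (61.7-fold), and Ipmk was lower. Under the phosphatidylinositol signalling system, to which Itpk1 also belongs, 3 of 7 genes had higher sites only, again Itpk1, Impa2 and Pik3cg, and 4 had lower sites only, namely Ipmk, Calml3, Cds1, which makes CDP-diacylglycerol, and Pik3r1, a regulatory subunit of phosphoinositide kinase.

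Markers of other cells had sites in the same tables. Beside them, 2.52% of all protein-coding genes had a site. Of all genes with a site, 36.1% had higher sites only and 61.1% lower sites only. Of 16 genes of beige and brown adipocytes 9 had a site, all higher in cold, as were the 2 of 14 genes of mural and smooth muscle cells, Des and Notch3. Des is on the skeletal muscle list too, so that Notch3 was the only one of the 2 not shared with it. Lower were all of the 5 of 14 macrophage genes, the 5 of 12 preadipocyte and fibroblast genes, the 3 of 10 white adipocyte genes and the 2 of 16 nerve genes (Egr2 and Scn7a) that had a site, and none of 12 endothelial genes had one. Smooth muscle is a cell type in which Adra1a is well known to act, and immune and stromal cells also express Camk2d. The part of these cells in the sites of Adra1a, Itpk1 and Camk2d was not tested, as no expression level was used here.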

How the data were processed

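MeRIP-seq was done on iWAT in 12 libraries, 4 groups of 3. Per the methods of the study, the authors used cutadapt for trimming, Hisat2 with mm10 for alignment, MACS2 for peaks and diffReps for differential sites. The processing notes of the submitters name other tools in part (Bowtie 0.12.2, MACS2, HOMER) and both mm8 and mm10. Of 739 sites, 735 overlapped the gene they name in GENCODE M21 (GRCm38), after 17 symbols were mapped through their transcript or Entrez gene. The authors deposited for each site a fold (a linear ratio above 1 in both lists), a p-value and an FDR, and −log10 of the p-value as a score. All are columns of the authors' own comparison, and no other values were used. The smallest deposited fold was 4.01, the largest deposited p-value 9.65e-06 and the shortest deposited site 300 bp long. C and T in the tables were read as cold and thermoneutral from the sample titles. Starts were read as counted from 0 and are printed counted from 1.

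Python 3.11.15 with pandas 2.3.3 and pysam 0.24.0 placed each site by its midpoint on the protein-coding transcript with the longest coding sequence, ties going to the lowest transcript number. Named genes were the 3 members with every site, each pathway-list gene with a site (strongest site), and for each member the gene nearest in fold. All 287 pathway symbols were found in RefSeq. The members and lists were chosen with earlier results of these data known. The functions were tested on simulated data. No test between groups was possible, as the tables hold no value per library, so the folds and p-values are those deposited.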

Additional observations from a re-analysis of the deposited data

How the results depend on the processing

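Depth per library is unknown, and leaving out a library could not be done because the tables hold no value per library. No paired analysis was possible because of the same. Of 25 alternatives, 20 left the count within 1.5 times its value. Without folds that are whole multiples of 0.1, 3 of the 5 member sites were left, 1 in each gene. On the coding transcript with the longest exonic length, 3 rather than 5 member sites had their midpoint in the 3' UTR, because both Adra1a sites lay past its end. Against the rest of the same exon, 2 rather than 4 sites were denser in DRACH. At a p of at most 1e-07, 11 pathway genes had a site, of which 4 rather than 8 had higher sites only. A fold of at least 8 left 4 member sites, with Itpk1 site 1 out. Placement on the transcript named in the table was added after the data were seen and left all 5 sites in the 3' UTR.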
